A study of Homo sapiens with 16 samples.

Results

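The E2F family comprises 8 genes in human cells, E2F1 to E2F8, which encode transcription factors that switch genes of DNA replication and the cell cycle on or off. The rows of the deposited expression tables that carry 1 of these 8 symbols were taken, 50 of 251295 transcripts and 8 of 61906 genes. The family was selected on the measured response of E2F2, whose change after depletion of HNRNPH1 differed between the cell lines more clearly than that of any other gene in an earlier look at these data. The values of E2F2 are therefore a description without a test. The other 7 genes belong to the same family by name. Their tests are adjusted over all genes, but they come from the comparisons that led to the choice, so nothing is read from how many of them changed.

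HNRNPH1 is a nuclear protein that binds G-rich RNA and takes part in splicing. HEK-293T cells (human embryonic kidney cells that carry the large T antigen of SV40, a protein that binds pocket proteins) and HT-1080 cells (a human fibrosarcoma line) were transfected with 20 nM siRNA, siHNRNPH1 to deplete HNRNPH1 or the negative control siNegative. Total RNA was taken after 48 h. Short-read RNA-seq covered 3 biological replicates in each of the 4 groups, and full-length cDNA sequencing (IsoSeq) covered 1 pool of replicates per group. All groups, controls included, went through transfection, and a single time point was taken.

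The family is usually divided by what its proteins do. E2F1, E2F2 and E2F3 are activators that turn on S-phase genes when the retinoblastoma protein RB1 releases them. E2F4 and E2F5 act mainly as repressors together with the pocket proteins RBL1 and RBL2 in resting and early G1 cells. E2F6 represses without pocket proteins, in a Polycomb complex named PRC1.6. E2F7 and E2F8 are atypical members that bind DNA without a DP partner, and repress the same S-phase genes late in the cycle. Several E2F genes are themselves targets of E2F proteins. In bulk RNA, fewer cells in a phase of the cycle and less RNA per cell cannot be told apart.

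Library totals of expected counts spanned 107.7 to 121.0 M in HEK-293T and 27.3 to 32.7 M in HT-1080. The target HNRNPH1 fell in both lines. Its log2 fold change was -1.76 (edgeR BH-adjusted p = 0.00939) in HEK-293T, and -1.49 (edgeR BH-adjusted p = 6.76e-09) in the HT-1080 line. HT-1080 controls held CD44, CAV1, MMP14 and AXL at 265 to 3037 CPM (counts scaled to the library total), against 0.313 to 6.78 CPM in HEK-293T controls. MMP1, also listed as an HT-1080 marker, was low, at 1.87 CPM in HT-1080 controls and 0.0058 CPM in HEK-293T controls. NEFM and LIN28B stood at 258 and 178 CPM in HEK-293T controls and at 0.011 and 23.3 CPM in HT-1080 controls. NEFL did not separate the lines in that direction (66.9 against 110 CPM), and PAX2 was low in both, at 1.34 and 0.394 CPM. Replicate 1 of HEK-293T siHNRNPH1 stood apart from its group. Its log2 CPM correlated with replicates 2 and 3 at r = 0.941 and 0.934. The lowest other r within a group was 0.9959, between HT-1080 siNegative replicates 1 and 2. HT-1080 siNegative replicate 2 had r = 0.9961 with replicate 3, while replicates 1 and 3 correlated at 0.9984. The members' HEK-293T results, and those of the gene lists, are therefore given with and without HEK-293T siHNRNPH1 replicate 1. HNRNPH1 itself stood at 234 CPM in replicate 1 and at 376 and 394 CPM in replicates 2 and 3. The fits without replicate 1 thus leave out the most depleted HEK-293T library, and the HNRNPH1 log2 fold change was then -1.58.

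The short words that E2F proteins are known to bind were looked up in the RefSeq promoter windows (GRCh38.p14, 250 bases before to 50 after each start). The search was chosen after the fall of E2F1 and E2F2 in HT-1080 was seen. The mean of every member was lower there, and a link between words and change was not tested. A window was listed for 6 of the 8 genes, with a pair of windows for E2F3. The words searched on both strands were TTTCGCGC, TTTGGCGC, TTTCCCGC and TTTGCCGC. At least 1 of them stood in 3.31% of all 35116 windows. They were found in the windows of all 3 activators, 2 in E2F1, 1 in E2F2 and 1 in the upstream window of E2F3. The downstream window of E2F3 and the windows of E2F4, E2F6 and E2F7 held none. A further word, TTTCGCGG, stood in 0.416% of all windows and once in the window of E2F1, of E2F2 and the upstream one of E2F3, at positions -37, -57 and -39, and overlaps the TTTGCCGC match in E2F1. A match describes the letters and shows no binding. Each match of the first 4 words follows with the word, or its reverse complement, in capitals. Their first capital bases lie at positions -42 (E2F2), -53 (E2F3), -20 and -33 (E2F1) from the annotated start, and the E2F1 runs overlap.
E2F2, chr1:23531257-23531286, minus strand: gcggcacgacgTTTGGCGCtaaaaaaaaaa
E2F3, chr6:20401815-20401844, plus strand: ttgaaaagccgGCGGGAAAtccgagtttcg
E2F1, chr20:33686387-33686416, minus strand: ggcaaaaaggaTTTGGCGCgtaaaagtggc
E2F1, chr20:33686400-33686429, minus strand: gtggctctttcGCGGCAAAaaggatttggc

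The mean RNA level of every member was lower in HT-1080 after siHNRNPH1, and of the 7 tested members E2F5 alone passed the edgeR test in HEK-293T with all libraries. In HT-1080 all 7 tested members were called lower at an edgeR BH-adjusted p under 0.05, beside 32.6% of all tested genes called lower and 32.7% called higher. In HEK-293T 1 of 7 was called lower, beside 4.88% of all genes lower and 5.12% higher. Leaving out the deviating siHNRNPH1 replicate, 6 of 7 were called lower, beside 31.3% lower and 30.5% higher of all genes. The change differed between the lines for 2 of 7 members, E2F1 and E2F6, both lower in HT-1080 relative to HEK-293T, beside 10.8% lower and 8.13% higher of all genes. Without that replicate it differed for 5 of 7, all in that direction, beside 26.4% lower and 22.7% higher of all genes.

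**Figure D1:**
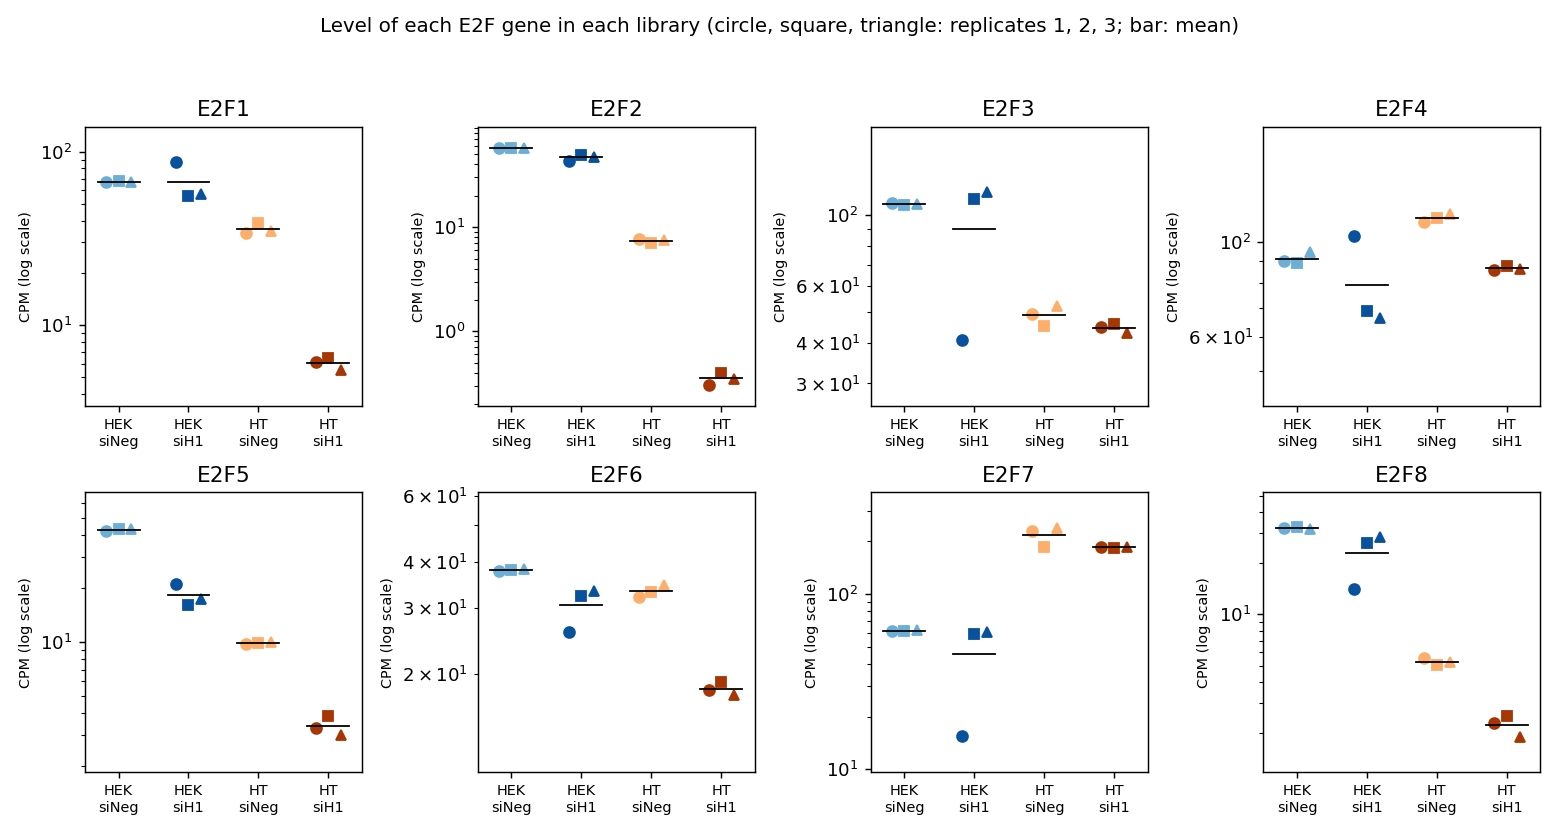
Level of each E2F gene in each library, in CPM on a log axis that differs between panels; circles, squares and triangles are replicates 1, 2 and 3 and bars are means (n = 3). The HT-1080 siHNRNPH1 libraries lie apart from and below siNegative for E2F1, E2F2, E2F4, E2F5, E2F6 and E2F8, and HEK-293T siHNRNPH1 replicate 1 (dark blue circle) lies away from its 2 partners in most panels.

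E2F2, an activator, gave the widest contrast between the lines. In HT-1080 it had 209, 213 and 230 expected counts in the siNegative libraries and 9, 13 and 10 in the siHNRNPH1 libraries. These correspond to 7.44 CPM ± 0.32 (SD, n = 3) and 0.353 CPM ± 0.045 (SD, n = 3). The depleted libraries rest on about 10 reads each, so the size of the change carries counting error as well as replicate error. Its log2 fold change there was -4.44 (SE 0.15). In HEK-293T the siNegative libraries stood at 57.8, 57.3 and 56.9 CPM and the siHNRNPH1 libraries at 43.5, 49.7 and 47.2 CPM, lower in each library. The HEK-293T log2 fold change was -0.32 (SE 0.11), and -0.30 (SE 0.04) without replicate 1. HEK-293T controls held a higher level than HT-1080 controls, and the order of the 4 groups showed no overlap between neighbours.

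E2F1, another activator, also fell in HT-1080. In HT-1080 its level was 33.9, 39.0 and 35.0 CPM with siNegative and 6.13, 6.49 and 5.48 CPM with siHNRNPH1, with no overlap. The log2 fold change was -2.64 (SE 0.09, edgeR BH-adjusted p = 1.37e-08). In HEK-293T the siNegative libraries stood at 66.7, 67.9 and 66.5 CPM. The siHNRNPH1 libraries stood at 87.3, 55.3 and 57.1 CPM, so replicate 1 lay above the controls and the other two below them. With all libraries the HEK-293T log2 fold change was -0.02 (SE 0.23, edgeR BH-adjusted p = 0.958), and without replicate 1 it was -0.31 (SE 0.04, edgeR BH-adjusted p = 7.77e-08). The change differed between the lines by -2.70 (SE 0.28, edgeR BH-adjusted p = 0.00011), or by -2.38 without replicate 1 (edgeR BH-adjusted p = 1e-11).

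E2F3 encodes an activator from 2 promoters, an upstream one that makes E2F3a and one in the first intron that makes E2F3b. Its gene level moved far less than that of E2F1 and E2F2. In HT-1080 the siNegative libraries stood at 49.4, 45.2 and 52.0 CPM and the siHNRNPH1 libraries at 44.9, 45.8 and 42.9 CPM, which overlapped. The log2 fold change of -0.20 (SE 0.06) had an edgeR BH-adjusted p = 0.0132. That call was lost without siNegative replicate 3 (edgeR BH-adjusted p = 0.0515) and siHNRNPH1 replicate 3 (0.0632), with library size as the only scaling (0.0812) and with a spread shared by all 12 libraries (0.624). In HEK-293T controls stood at 107.2 to 108.5 CPM, and siHNRNPH1 at 40.9, 112 and 117 CPM, so that the low value belonged to replicate 1 alone. The HEK-293T log2 fold change was -0.30 (SE 0.37, edgeR BH-adjusted p = 0.648), and 0.03 without replicate 1 (edgeR BH-adjusted p = 0.423). Between the lines the change differed by 0.04 (SE 0.38, edgeR BH-adjusted p = 1.0) with all libraries, and -0.28 (edgeR BH-adjusted p = 0.00329) without replicate 1.

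Among the repressors, E2F5 fell in both lines. In HEK-293T it stood at 41.8, 43.0 and 43.2 CPM with siNegative and at 21.3, 16.1 and 17.5 CPM with siHNRNPH1, and replicate 1 was low as well. Its log2 fold change there was -1.24 (SE 0.16, edgeR BH-adjusted p = 0.0121), and -1.40 without replicate 1 (edgeR BH-adjusted p = 6.51e-17). The HEK-293T call was lost in each of the other 5 fits that left 1 library out, with adjusted p-values up to 0.0896. In HT-1080 E2F5 had 265 to 301 expected counts with siNegative and 96, 125 and 85 with siHNRNPH1. The log2 fold change was -1.61 (SE 0.10, edgeR BH-adjusted p = 7.83e-07). The HT-1080 minus HEK-293T value of -0.45 (SE 0.21) missed the threshold (edgeR BH-adjusted p = 0.167), as did that without replicate 1 (edgeR BH-adjusted p = 0.0702). The locus overlaps RBIS, and the strandedness of the libraries is not given in the sources used here. RBIS had a log2 fold change of 0.28 in HEK-293T (edgeR BH-adjusted p = 0.6), or -0.13 without replicate 1 (edgeR BH-adjusted p = 0.0185). The HT-1080 value was -0.11 (edgeR BH-adjusted p = 0.352). The part of overlapping reads in the E2F5 values was not tested.

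E2F4, the other repressor, is made throughout the cell cycle. In HT-1080 it went from 111, 114 and 116 CPM with siNegative to 86.0, 87.6 and 86.2 CPM with siHNRNPH1, without overlap. The log2 fold change was -0.46 (SE 0.04, edgeR BH-adjusted p = 6.98e-06), a call that was lost with a spread shared by all 12 libraries (0.0708). In HEK-293T siNegative stood at 90.2, 89.1 and 94.8 CPM. The siHNRNPH1 libraries stood at 103, 69.0 and 66.2 CPM, with replicate 1 above the controls and the other two below. With all HEK-293T libraries the log2 fold change was -0.22 (SE 0.22, edgeR BH-adjusted p = 0.582), and without replicate 1 it was -0.49 (SE 0.04, edgeR BH-adjusted p = 5.83e-11). HT-1080 minus HEK-293T, the change differed by -0.32 (SE 0.25, edgeR BH-adjusted p = 0.421), and by -0.02 (SE 0.06) without replicate 1.

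E2F6, the PRC1.6 member, went in HT-1080 from 32.1, 33.3 and 34.6 CPM with siNegative to 18.1, 19.1 and 17.5 CPM with siHNRNPH1. The log2 fold change was -0.94 (SE 0.06, edgeR BH-adjusted p = 6.51e-07). In HEK-293T it went from 37.8, 38.0 and 38.3 CPM to 25.9, 32.4 and 33.4 CPM, below the controls in each library. The HEK-293T log2 fold change was -0.34 (SE 0.12, edgeR BH-adjusted p = 0.139), and -0.27 without replicate 1 (edgeR BH-adjusted p = 3.78e-06). The lines differed by -0.66 (SE 0.12, edgeR BH-adjusted p = 0.0033), or by -0.72 without replicate 1. Without a filter on low counts the edgeR BH-adjusted p of this difference was 0.062.

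The atypical members differed from each other. E2F8 had 151, 152 and 159 expected counts in HT-1080 controls and 67, 82 and 54 after siHNRNPH1. Its log2 fold change was -1.30 (SE 0.13, edgeR BH-adjusted p = 1.39e-05). In HEK-293T E2F8 stood at 32.0, 32.6 and 31.7 CPM and then at 14.0, 26.4 and 28.5 CPM, lower in each library and lowest in replicate 1. The HEK-293T log2 fold change was -0.52 (SE 0.25, edgeR BH-adjusted p = 0.255), and -0.28 (edgeR BH-adjusted p = 8.07e-06) without replicate 1. Its change in HT-1080 minus that in HEK-293T was -0.85 (SE 0.28, edgeR BH-adjusted p = 0.0609), and -1.06 without replicate 1 (edgeR BH-adjusted p = 1.96e-06).

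E2F7 had a smaller log2 fold change than E2F8. In HT-1080 the siNegative libraries stood at 229, 185 and 238 CPM and the siHNRNPH1 libraries at 185.0, 184.5 and 187 CPM, so control replicate 2 fell among the depleted libraries. The log2 fold change was -0.30 (SE 0.08, edgeR BH-adjusted p = 0.00757), a call that was lost with a spread shared by all 12 libraries (0.575). In HEK-293T the controls stood at 61.4 to 62.5 CPM and the siHNRNPH1 libraries at 15.5, 59.6 and 61.0 CPM, with replicate 1 alone far below. The HEK-293T log2 fold change was -0.49 (SE 0.47, edgeR BH-adjusted p = 0.557), and -0.09 without replicate 1 (edgeR BH-adjusted p = 0.023). The lines differed by 0.14 (edgeR BH-adjusted p = 0.919) with all libraries, and by -0.25 (edgeR BH-adjusted p = 0.0406) without replicate 1.

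**Figure D2:**
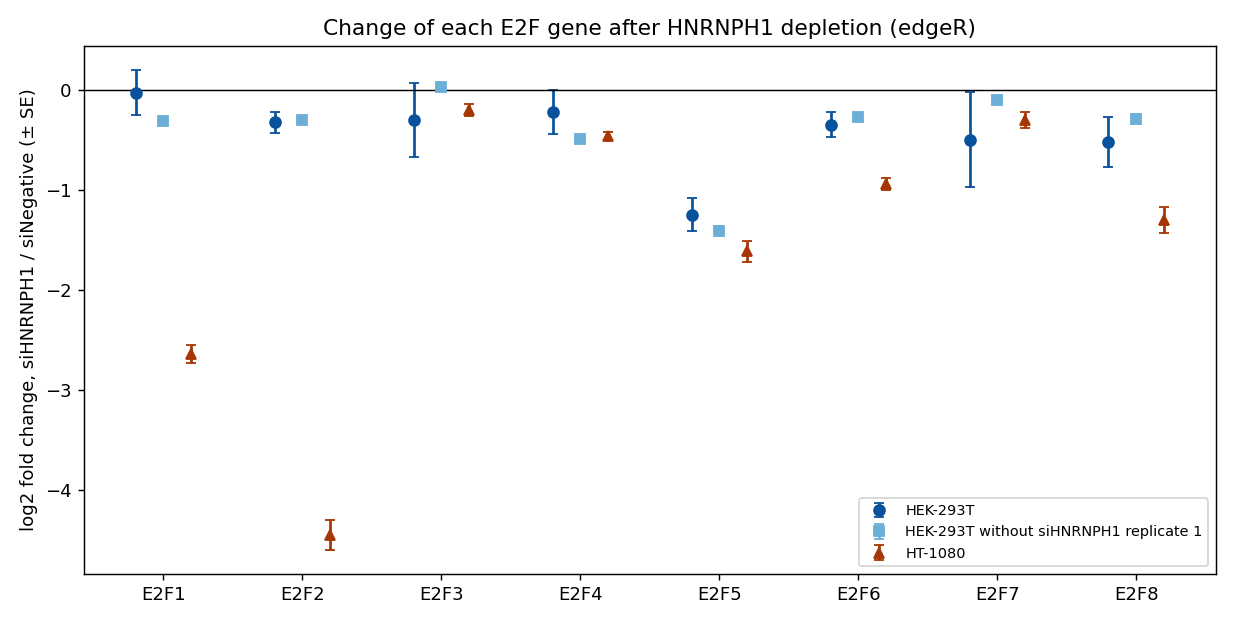
Log2 fold change of each E2F gene after siHNRNPH1 relative to siNegative, with standard errors from edgeR, in HEK-293T, in HEK-293T without siHNRNPH1 replicate 1, and in HT-1080. E2F1 and E2F2 reach -2.64 and -4.44 in HT-1080 and lie between -0.32 and -0.02 in HEK-293T, while E2F5 lies between -1.61 and -1.24 in all 3 fits.

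The levels before depletion, which played no part in the choice of the other members, differed between the lines in either direction. In the siNegative libraries 4 of 7 members were lower in HT-1080 and 2 were higher at an edgeR BH-adjusted p under 0.05, beside 38.2% lower and 34.1% higher of all genes. E2F8 (log2 difference -2.38, edgeR BH-adjusted p = 1.23e-06) and E2F5 (-1.89, edgeR BH-adjusted p = 6.36e-07) were the lowest in HT-1080 relative to HEK-293T among the tested members. E2F3 (-0.92, edgeR BH-adjusted p = 0.00995) and E2F1 (-0.67, edgeR BH-adjusted p = 0.00845) were lower by smaller amounts. E2F7 was higher in HT-1080 by 2.04 (SE 0.36, edgeR BH-adjusted p = 4.07e-04). E2F4 was higher by 0.54 (edgeR BH-adjusted p = 0.0177), and by 0.32 with library size as the only scaling, where its edgeR BH-adjusted p was 0.0713. That call was also lost without a filter on low counts (edgeR BH-adjusted p = 0.147) and without HT-1080 siNegative replicate 2 (0.056) or 3 (0.0599). E2F6 differed by 0.03 (edgeR BH-adjusted p = 0.727), and by -0.19 with library size as the only scaling. That scaling moved the median of all genes in this comparison from -0.11 to -0.33. E2F2 had a log2 difference of -2.72, given without a test.

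Use of transcripts within a gene is another measure than the gene level, and E2F4 was the member that passed its test in both lines. The deposited annotation lists 13 transcripts for E2F4, 12 for E2F6, 8 for E2F5, 7 for E2F7, 5 for E2F8, 2 each for E2F2 and E2F3, and 1 for E2F1 (ENST00000343380.6). In HEK-293T 1 of the 7 members with several measured transcripts passed the diffSpliceDGE test of edgeR, beside 8.72% of all genes tested, and in HT-1080 1 of 6 passed, beside 13.6%. E2F4 had an edgeR BH-adjusted p = 0.00231 in HEK-293T and 6.76e-06 in HT-1080. Leaving out the deviating HEK-293T replicate, its edgeR BH-adjusted p was 2.66e-12, beside 33.6% of genes called. In each of the other 5 fits that left out 1 library the HEK-293T call was lost, with an edgeR BH-adjusted p of 0.0985 to 0.832, and it was also lost by Simes p (0.271). In HT-1080 every fit without 1 library kept the call, with an edgeR BH-adjusted p of at most 0.00202. In simulated libraries this test also called genes whose usage had not been changed. A limma test on the log ratio of each transcript to the rest of its gene made fewer such calls and was added after the data were seen. It gave E2F4 a limma BH-adjusted p = 0.0195 in HT-1080, beside 7.35% of genes called. In HEK-293T it gave a limma BH-adjusted p = 0.0591 with all libraries, which missed the threshold, beside 5.6% of genes called. Without replicate 1 this p was 0.0073, beside 23.1% of genes called.

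The E2F4 transcript ENST00000567007.5 held a larger share of the gene in every depleted library. In HEK-293T this share was 2.71, 2.80 and 3.37% in the siNegative libraries and 9.18, 16.0 and 13.8% with siHNRNPH1. In HT-1080 it held 7.06, 6.58 and 7.10% with siNegative and 19.01, 21.9 and 16.5% with siHNRNPH1. All 6 depleted libraries lay above the controls of their line, HEK-293T replicate 1 included. The exact two-sided permutation test of 3 libraries against 3 gave p = 0.1 in each line, the smallest it can give. In HT-1080 its expected counts were 215 to 250 with siNegative and 406 to 626 with siHNRNPH1. The main transcript, ENST00000379378.8, held 83.8% ± 1.97 (SD, n = 3) in HT-1080 controls and 72.7% ± 2.26 (SD, n = 3) after siHNRNPH1. In HEK-293T it held 88.4% ± 0.769 (SD, n = 3) and then 78.4% ± 4.98 (SD, n = 3), and these groups did not overlap either. Tested within the gene, ENST00000567007.5 rose relative to the other transcripts with a diffSpliceDGE BH-adjusted p = 0.00108 in HT-1080 and 0.162 in HEK-293T (4.63e-11 without replicate 1). The remaining 11 E2F4 transcripts held at most 3.27% each in any group mean.

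**Figure D3:**
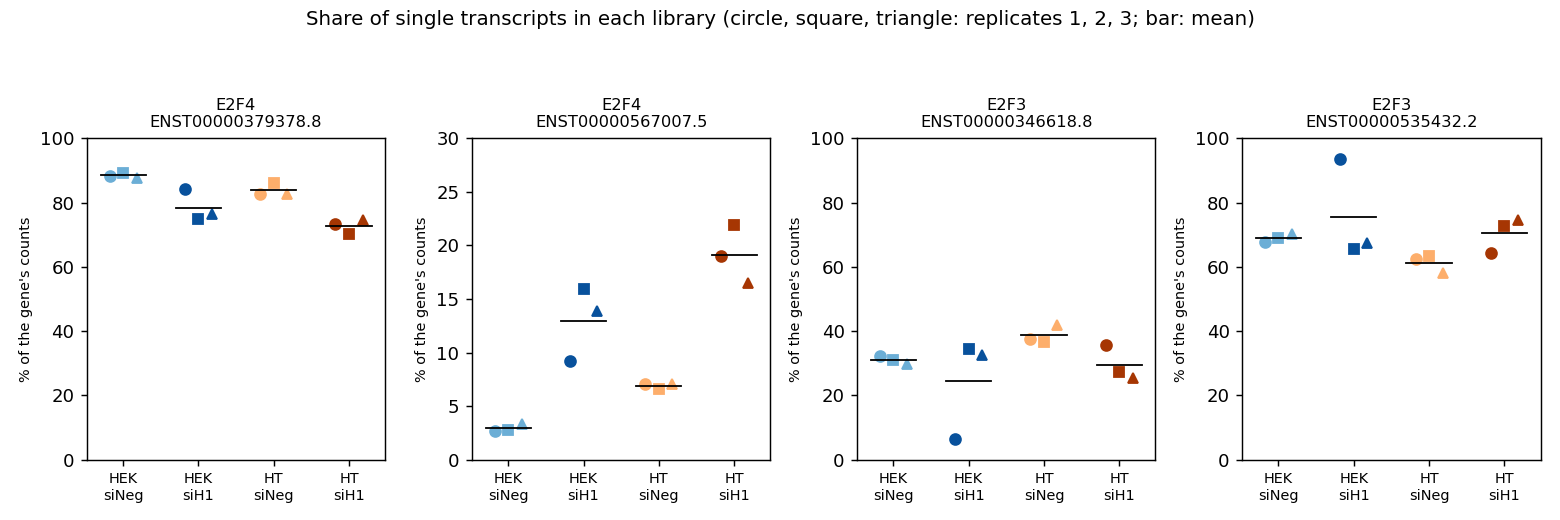
Share of the gene's expected counts held by single transcripts of E2F4 and E2F3 in each library, in percent; symbols are replicates and bars means (n = 3), and the axis of the E2F4 transcript ENST00000567007.5 ends at 30%. That transcript lies above its controls in all 6 depleted libraries, and the shares of E2F3 transcripts in HEK-293T siHNRNPH1 replicate 1 lie far from those of its partners.

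The full-length pools show how E2F4 molecules are built, though each model counts once whatever its abundance. The pools held 3 and 4 E2F4 models in HEK-293T (siNegative and siHNRNPH1) and 16 and 8 in HT-1080, of 64705 to 94847 models per pool. They differ mainly in the introns near the 5' end, which are spliced in some models and kept in others. The intron at chr16:67193516-67194397 (882 bases, coordinates of the deposited files) was kept in 0 of 3 models that span it in HEK-293T siNegative and in 2 of 4 in siHNRNPH1. In HT-1080 it was kept in 4 of 15 and 3 of 8. The exact 95% Clopper-Pearson intervals were 0 to 70.8%, 6.76 to 93.2%, 7.79 to 55.1% and 8.52 to 75.5%, and all of them overlapped. The intron before it, at chr16:67193171-67193471, was kept in 0 of 3, 2 of 4, 6 of 14 and 3 of 8 models in the same order. Further upstream, chr16:67192871-67193008 was kept in 2 of 3, 3 of 4, 8 of 14 and 6 of 8. For chr16:67192363-67192760 the counts were 0 of 3, 1 of 4, 3 of 13 and 4 of 8. The introns at chr16:67192871-67193008 and chr16:67192363-67192760 had higher shares after siHNRNPH1 in each line. For chr16:67193171-67193471 the share was higher in HEK-293T but lower in HT-1080 (42.9% with siNegative, 37.5% with siHNRNPH1). The intervals overlapped for each of these introns. With 1 pool per group there is no test, and these counts do not separate depleted from control cells.

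**Figure D4:**
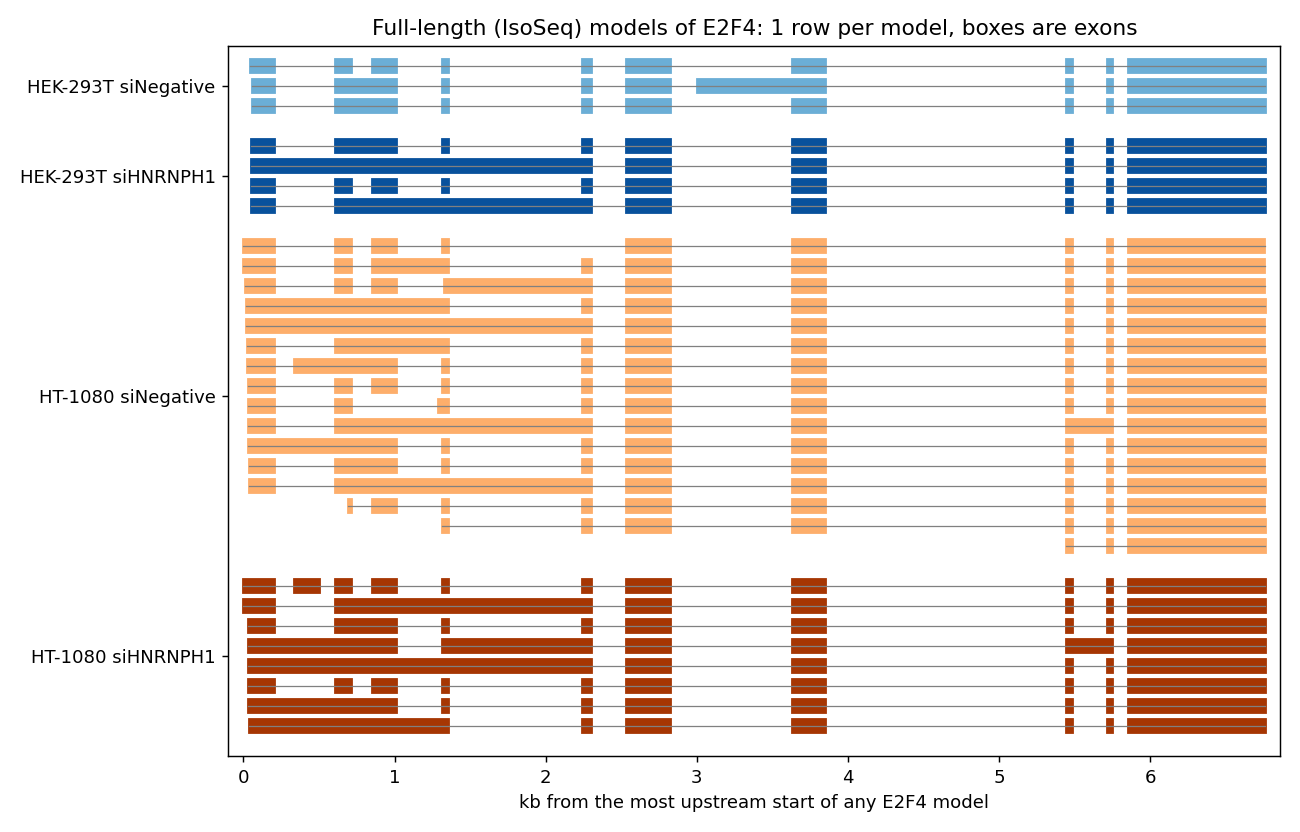
Full-length models of E2F4 in the 4 IsoSeq pools, 1 row per model with exons as boxes, plotted by distance in kb from the most upstream start. The models of a pool differ mainly in the first 2.5 kb, where long boxes are kept introns, and such models occur in HT-1080 control cells as well as after depletion.

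E2F3 splits its counts between the transcripts of its 2 promoters. The E2F3a transcript ENST00000346618.8 held 37.7, 36.6 and 42.0% in HT-1080 controls and 35.7, 27.3 and 25.3% after siHNRNPH1, the rest being E2F3b (ENST00000535432.2). The groups did not overlap (exact permutation p = 0.1, the smallest possible), but the usage test of the gene missed the threshold (edgeR BH-adjusted p = 0.0771). In HEK-293T controls E2F3a held 29.9 to 32.1%. After siHNRNPH1 it held 34.6 and 32.6% in replicates 2 and 3 and 6.38% in replicate 1, where its expected counts were 281 against 3847 to 3899 in controls. Among full-length models with a first exon of either kind ending at the usual donor (20402625 for E2F3a, 20403832 for E2F3b), the E2F3a share was 2 of 5 and 4 of 6 in HEK-293T and 0 of 5 and 2 of 9 in HT-1080.

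The other members had usage tests with an edgeR BH-adjusted p of at least 0.28 in either line with all libraries. E2F2 was nearly all ENST00000361729.3 (99.8% in HEK-293T controls). The main E2F6 transcript, ENST00000381525.8, held 46.7% ± 1.80 and 53.3% ± 5.47 in HEK-293T (siNegative and siHNRNPH1, SD, n = 3). In HT-1080 it held 41.0% ± 9.85 and 54.5% ± 21.4, and the groups overlapped in both lines. ENST00000455198.5 held 34.9 and 30.6% of E2F6 in HEK-293T and 15.0 and 15.7% in HT-1080, and ENST00000546212.2 held 6.13 and 7.80% and then 24.8 and 12.8%, all with overlapping groups. E2F5 drew on different transcripts in the lines: ENST00000521429.5 held 32.3% and ENST00000416274.7 2.33% in HEK-293T controls, against 3.57 and 57.2% in HT-1080 controls, a difference that was not tested. In HT-1080 the E2F5 transcript ENST00000418930.6 held 36.1, 26.2 and 30.4% with siNegative and 0, 20.4 and 21.6% with siHNRNPH1, but the depleted libraries hold at most 26 counts of it. E2F7 was almost entirely ENST00000322886.12 (98.4 and 99.1% in the controls). HEK-293T siHNRNPH1 replicate 1 again stood apart. There ENST00000416496.6 held 49.5% of E2F7 (2.75 and 1.34% in replicates 2 and 3), and ENST00000250024.9 held 5.50% of E2F8 against 49.5 and 52.0%. In HT-1080 the division of E2F8 between ENST00000250024.9 and ENST00000527884.5 varied from 14.2 to 90.1% for the former among control replicates, at about 150 counts per library. The depleted libraries, at 67.5 to 81.3%, lay within that range. A further E2F8 transcript, ENST00000620009.4, held 39.8% in HT-1080 siNegative replicate 1 and was at 0 in the other 5 HT-1080 libraries.

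The full-length pools gave few models of E2F1 and E2F2, and of E2F8 in HT-1080. E2F2 had 4 and 5 models in HEK-293T (siNegative and siHNRNPH1) and 1 and 0 in HT-1080. E2F1 had 2 and 1 models in HEK-293T and 5 and 1 in HT-1080. E2F8 had 7 and 12 in HEK-293T and 2 and 1 in HT-1080. E2F6 had 9 and 18 models in HEK-293T and 19 and 7 in HT-1080, and E2F7 had 9 or 10 in every pool. No model in any pool was assigned to E2F5. Models overlapping its locus numbered 3 and 5 in HEK-293T and 5 and 6 in HT-1080. None had 2 or more exons inside the locus, so no strand was set there and they were not counted. The number of models grows with sequencing depth and pool size, so these counts show which forms were seen and not how much RNA there was.

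Partners and targets of the family were taken from lists of known function, which were drawn up with earlier results of these data known. The DP proteins pair with E2F1 to E2F6 to bind DNA. TFDP1 had a log2 fold change of -0.18 in HEK-293T (edgeR BH-adjusted p = 0.453), or -0.08 without replicate 1 (edgeR BH-adjusted p = 0.0291). The HT-1080 value was -0.01 (edgeR BH-adjusted p = 0.808). TFDP2 rose in HT-1080 by 0.34 (SE 0.04, edgeR BH-adjusted p = 8.66e-05), from 65.2 CPM ± 0.176 to 86.7 CPM ± 2.86 (SD, n = 3). In HEK-293T it went from 69.9 to 51.3 CPM, a log2 fold change of -0.48 that missed the threshold (edgeR BH-adjusted p = 0.0512) and was -0.43 without replicate 1 (edgeR BH-adjusted p = 4.16e-10). The TFDP2 change differed between the lines by 0.75 (edgeR BH-adjusted p = 6.98e-04). TFDP3 was listed at 0 in every group.

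The pocket proteins hold E2F proteins in check. RBL1, itself an E2F target, fell in HT-1080 by 1.11 on the log2 scale (SE 0.08, edgeR BH-adjusted p = 1.47e-06) and had a change of 0.04 in HEK-293T (edgeR BH-adjusted p = 0.946), or 0.31 without replicate 1 (edgeR BH-adjusted p = 1.7e-07). RB1 fell slightly in HT-1080 (log2 fold change -0.18, edgeR BH-adjusted p = 0.0371), and had -0.23 in HEK-293T (edgeR BH-adjusted p = 0.701), or 0.07 without replicate 1 (edgeR BH-adjusted p = 0.0928). RBL2 had a log2 fold change of 0.00 (edgeR BH-adjusted p = 0.961) in HT-1080, while that in HEK-293T was -0.70 (edgeR BH-adjusted p = 0.248), or -0.40 without replicate 1 (edgeR BH-adjusted p = 1.1e-09).

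The list of 46 genes that E2F proteins are known to activate, among them the MCM helicase and DNA polymerase genes, was lower in HT-1080. All 46 were called lower by edgeR there, beside 32.6% of all genes, with a median log2 fold change of -1.80 beside 0.01 for all genes. The most negative were ZNF367 (-3.23), CCNE2 (-2.61) and LMNB1 (-2.44), and the least negative CCNE1 (-0.42), UNG (-0.75) and MSH6 (-0.80). In HEK-293T 5 of 46 were called lower, beside 4.88% of all genes, and 41 did not pass, with a median of -0.20 beside 0.02 for all genes. Without the deviating replicate, 31 were lower and 2 higher, beside 31.3% and 30.5% of all genes, with ZNF367 (0.71) among the higher. The change was more negative in HT-1080 for 43 of the 46 by the test of the difference, beside 10.8% of all genes.

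Of the 8 genes of the MuvB complex and its partners, which carry the cell cycle program on from E2F targets to mitotic genes, 7 were lower and 1 was higher in HT-1080, beside 32.6% and 32.7% of all genes. MYBL1 (-2.60), MYBL2 (-1.98) and FOXM1 (-1.44) fell most, and LIN37, a core subunit, rose by 0.67 (edgeR BH-adjusted p = 1.46e-05). In HEK-293T their edgeR BH-adjusted p-values were at least 0.0569 with all libraries, while 5 were lower and 3 higher without replicate 1, beside 31.3% and 30.5% of all genes. The 3 genes of E2F protein turnover fell in HT-1080, CCNF by 1.26, SKP2 by 0.89 and FZR1 by 0.29, and in HEK-293T they had edgeR BH-adjusted p-values of at least 0.326 with all libraries. Without replicate 1 SKP2 was called lower there (-0.16, edgeR BH-adjusted p = 1.13e-04), while CCNF (0.00) and FZR1 (0.05) did not pass.

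The 12 partners of E2F6 in PRC1.6 were called at shares near those of all genes. In HT-1080 3 were higher, led by HDAC1 (0.78), with PCGF6 (0.29) and RING1 (0.18), 4 were lower, among them WDR5 (-0.57), CBX3 (-0.54) and HDAC2 (-0.37), and 5 did not pass, beside 32.7% higher and 32.6% lower of all genes. In HEK-293T with all libraries the 12 had edgeR BH-adjusted p-values of at least 0.0538, and without replicate 1, 3 were called higher and 5 lower, beside 30.5% and 31.3% of all genes. The DNA-binding subunit MGA had a log2 fold change of 0.06 in HT-1080 (edgeR BH-adjusted p = 0.572). In HEK-293T it was -0.05 (edgeR BH-adjusted p = 0.955), or 0.34 without replicate 1. Of 5 germline genes that E2F6 and PRC1.6 are known to silence, none reached the expression filter in HT-1080. In HEK-293T MAEL stood at 0.018, 0.017 and 0.025 CPM with siNegative and at 0.093, 0.132 and 0.139 CPM with siHNRNPH1, a level of few reads. It passed the expression filter only through the depleted libraries, so its change is given without a test. STAG3 and SMC1B had log2 fold changes of 0.59 and 0.73 that did not pass (edgeR BH-adjusted p = 0.0869 and 0.0781). Without replicate 1 STAG3 (0.65) and SMC1B (0.87) were called higher (edgeR BH-adjusted p = 0.00945 and 3.32e-04), beside 30.5% of all genes. The MAEL value was then 2.64. The rest of the 5 did not reach the filter in HEK-293T either.

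**Figure D5:**
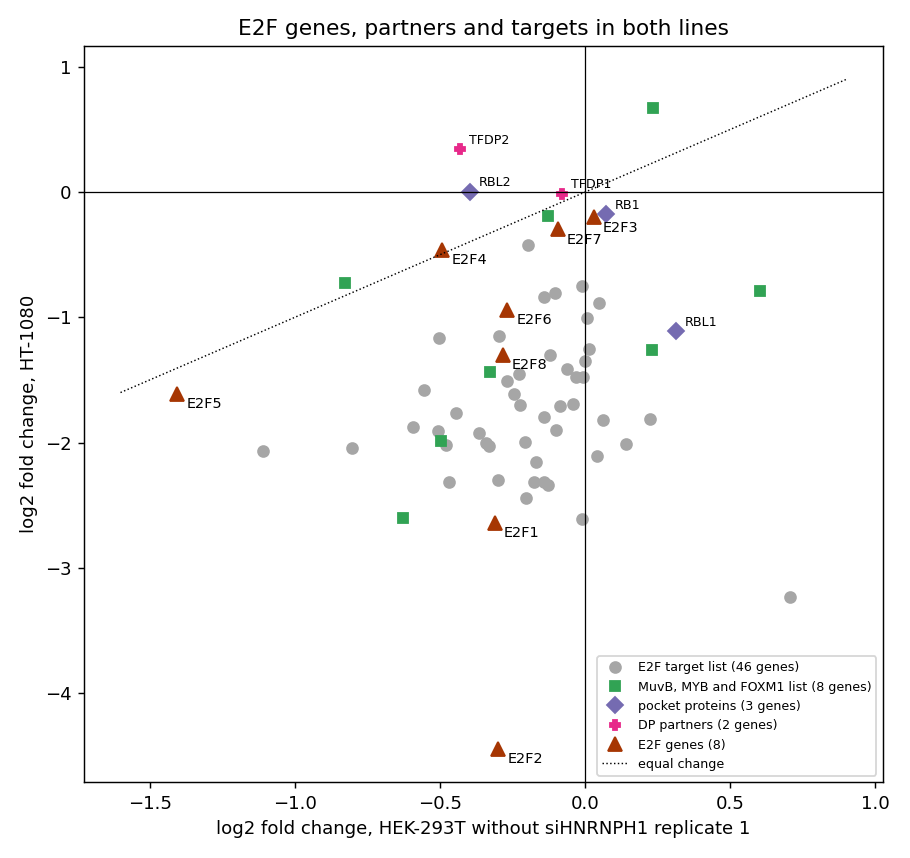
Log2 fold change in HT-1080 (vertical axis) against HEK-293T without siHNRNPH1 replicate 1 (horizontal axis) for the E2F genes, the DP partners, the pocket proteins, the MuvB list and the 46 targets; the dotted line marks equal change. All 46 targets lie below 0 in HT-1080, between -3.23 and -0.42. E2F4 lies near the line, and E2F3, E2F5 and E2F7 lie a little below it. Of these, E2F3 and E2F7 were called different between the lines without that replicate.

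Across the 12 libraries, the level of E2F2 rose and fell most closely with that of ORC1, SPAG5, NCAPH, MCM6 and MCM3, with Pearson r of 0.9984 to 0.9989 among 17355 genes (log2 of CPM + 1). These 12 points form 4 clusters, the groups, so r mainly reflects the 4 group means and is a description. The genes were picked by the values of E2F2, so their fall in HT-1080 comes with the pick. The added 1 shrinks changes at low CPM, so r and the edgeR log2 fold changes rest on different scales. In HT-1080 these genes had log2 fold changes of -2.00 (MCM3), -1.90 (MCM6), -1.69 (ORC1), -1.47 (NCAPH) and -1.36 (SPAG5), less than that of E2F2. Within the family, r with E2F2 was 0.968 for E2F8, 0.96 for E2F1, 0.949 for E2F5, 0.844 for E2F6, 0.77 for E2F3, -0.18 for E2F4 and -0.76 for E2F7, over the same libraries.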

How the data were processed

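Short-read tables were deposited as RSEM expected counts for each transcript (build GRCh38.p13), per the submitters' processing notes. The RSEM version, annotation release and strandedness are not given in the sources used here. The IsoSeq files list exon positions of transcript models per the file headers and carry no counts. Transcripts of a gene were added up and rounded to whole counts. After filterByExpr and TMM scaling, genes were tested with the quasi-likelihood test (edgeR 4.0.16, R 4.3.3, two-sided, robust), per line on 6 libraries. The difference between the lines and the control levels were fitted on all 12. P-values were Benjamini-Hochberg (BH) adjusted over all genes, threshold 0.05. Transcript usage was tested with edgeR's diffSpliceDGE, shares with an exact permutation test. Alternatives were other scalings, no filter, DESeq2 1.42.0, limma 3.58.1, leaving out single libraries and a replicate block. The gene fit per line, the difference between lines, the diffSpliceDGE gene test and the limma usage tests were tried on simulated data. The other steps were not. CPM divide by the library total. Clopper-Pearson intervals of models cover counting error only.

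The members, gene lists and tests were chosen with earlier results of these data known. Named were HNRNPH1, all members, all DP and pocket genes, the 3 most positive and 3 most negative genes called in HT-1080 of each other list, the 5 genes most like E2F2 among those with a mean of at least 50 counts in a group, and transcripts of at least 10% in any group. RBIS was added after its overlap with E2F5 was seen, and of the E2F6 and PRC1.6 lists MGA, MAEL, STAG3 and SMC1B were named after their values were seen.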

Additional observations from a re-analysis of the deposited data

Results flagged for a closer look

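These genes changed differently in the lines by the test of the difference itself (the HT-1080 log2 fold change minus the HEK-293T one, edgeR, BH-adjusted over all genes). Among the members they were E2F1 (-2.70) and E2F6 (-0.66). Of the partners, TFDP2 (0.75) went the other way and RBL1 (-1.22) did not. Of the MuvB list they were MYBL1 (-1.78), MYBL2 (-1.99) and FOXM1 (-1.26), and of PRC1.6 HDAC1 (0.71), HDAC2 (-0.44) and CBX3 (-0.51). CCNF (-1.38) and SKP2 (-0.63) stood for protein turnover. Of the named targets they were ZNF367 (-3.85), CCNE2 (-2.44), LMNB1 (-2.17), MCM6 (-1.86), MCM3 (-1.84), ORC1 (-1.70), UNG (-0.88) and MSH6 (-0.61). E2F2 is left out here because its difference chose the family.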

How the results depend on the processing

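Of 616 values of single members under alternatives, 568 kept their direction and their side of the threshold, 24 lost and 11 gained a call, 11 changed sign and 2, of E2F2, moved beyond their error. The members called in HEK-293T numbered 1, with 0 to 6 when 1 library was left out, 2 with a spread shared by 12 libraries and 0 with the replicate block. In HT-1080 they numbered 7, with 6 to 7 and 4 with the shared spread (E2F3, E2F4 and E2F7 were lost). For the difference between lines they numbered 2, with 2 to 5, and 1 without a filter; for control levels 6, with 5 to 6. For usage, 1 member was called in HEK-293T, with 0 to 1 and 0 by Simes p and by limma on log ratios; leaving out siHNRNPH1 replicate 2 called E2F7 in place of E2F4. In HT-1080 it was 1, with 1 to 2 and 2 by limma diffSplice.

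Signs changed as follows. E2F1 in HEK-293T ranged from -0.31 to 0.11 when 1 library was left out (0.08 without siHNRNPH1 replicate 3) and was 0.045 with the shared spread. E2F3 in HEK-293T ranged from -0.54 to 0.031, the latter without siHNRNPH1 replicate 1. Its difference between lines ranged from -0.28 without that library to 0.25, with -0.0096 without HT-1080 siNegative replicate 2. The difference of E2F7 ranged from -0.25, without HEK-293T siHNRNPH1 replicate 1, to 0.39. The control level of E2F6 ranged from -0.023 to 0.058, with -0.00014 without HT-1080 siNegative replicate 2, and was -0.19 by library size only and -0.20 without a filter. The causes were not tested.

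Over all genes, 1997 were called in HEK-293T, against 3982 by DESeq2, 1302 without a filter, 4551 with the shared spread and 0 with the replicate block (0 to 12557 without 1 library). In HT-1080 they were 10538, against 6237 with the shared spread. The difference between lines had 4034, and 2535 with the replicate block. Usage in HEK-293T had 1135 genes, against 708 by Simes p, 648 with transcripts of at least 5%, 541 with the replicate block and 729 by limma on log ratios. Usage in HT-1080 had 1467, against 2278 by limma diffSplice, 577 by Simes p, 850 with the replicate block and 790 by limma on log ratios. Whether siNegative and siHNRNPH1 replicates of the same number were paired was not settled, and the main fits did not pair them. Deviations of libraries with the same number correlated at 0.0283 to 0.11 in HEK-293T and 0.0391 to 0.127 in HT-1080. With different numbers they correlated at -0.104 to 0.0714 and -0.135 to 0.0656, and not every library correlated best with its own number. All E2F models counted at member loci had at least 2 exons, so that choice changed no count. The models overlapping the E2F5 locus had been left out beforehand. With 9 to 13 reads of E2F2 and 54 to 82 of E2F8 in depleted HT-1080 libraries, depth limits both.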
